A study of Mus musculus with 15 samples.

Results

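The immediate early genes followed here were Fos, Fosb, Jun, Junb, Jund, Egr1, Egr2, Atf3, Ier2 and Ier3. These were the features of the deposited count table that carry one of these symbols, 10 of 47729 features in all. The counts came from macrophages sorted from the aorta as F4/80+ CD64+ and split by the odorant receptor Olfr2 into Olfr2+ and Olfr2- cells. All libraries shared the same background: female Apoe-/- mice (given in the genotype label as Apoe dko), which develop atherosclerosis, fed a high fat diet for 4 weeks. Cells from the aortas of 4 mice were pooled before sorting, each sort held 100 to 200 cells, and the sorts are described as technical replicates. Their cDNA was amplified for 18 PCR cycles by Smart-Seq2, a method for very small cell numbers. No label ties the numbered samples to separate animals, and p-values therefore reflect only how these samples vary, variation that may be purely technical. The table had 15 columns, 5 for Olfr2- (samples 1, 3 and 4) and 10 for Olfr2+ (samples 2, 3 and 4), with the number in a title read as the sample and the letter as a repeat.

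Immediate early genes are transcribed within minutes of a stimulus because the factors that switch them on, among them SRF with its ETS partners and CREB, are already present in the cell and need only phosphorylation. Fos and Jun family proteins pair through leucine zippers into the AP-1 factor, EGR proteins are zinc finger factors, and ATF3 is a stress-induced member of the ATF and CREB family that restrains inflammatory genes in macrophages. The same genes respond to growth factors, bacterial products, lipid loading and the enzymes and warmth used to free cells from a tissue.

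The sequences just before the start sites of 6 members are shown because they hold the elements through which such genes are known to be switched on. Each is the 150 bases before a RefSeq start on GRCm38.p6, read 5′ to 3′ on the strand of the gene, with matches in capitals. The Fos window is chr12:85473740-85473889 (plus strand), Jun chr4:95052223-95052372 (minus), Junb chr8:84978749-84978898 (minus), Jund chr8:70697589-70697738 (plus), Atf3 chr1:191183334-191183483 (minus) and Egr2 chr10:67537719-67537868 (plus). Egr2 has several RefSeq starts, and the window shown is among those with the most matches: the window at chr10:67535349-67535498 held none of the marked elements, and that at chr10:67537416-67537565 held a CArG box and no TGACG.
Fos: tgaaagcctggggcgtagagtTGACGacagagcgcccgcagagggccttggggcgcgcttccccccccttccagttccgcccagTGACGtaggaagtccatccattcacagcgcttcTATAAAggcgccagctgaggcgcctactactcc
Jun: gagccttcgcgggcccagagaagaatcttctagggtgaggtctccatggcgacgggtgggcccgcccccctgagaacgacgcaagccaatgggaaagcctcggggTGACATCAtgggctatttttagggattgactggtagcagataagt
Junb: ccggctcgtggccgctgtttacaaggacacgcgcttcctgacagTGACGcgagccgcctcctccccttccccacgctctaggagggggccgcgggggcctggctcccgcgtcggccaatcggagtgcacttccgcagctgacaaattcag
Jund: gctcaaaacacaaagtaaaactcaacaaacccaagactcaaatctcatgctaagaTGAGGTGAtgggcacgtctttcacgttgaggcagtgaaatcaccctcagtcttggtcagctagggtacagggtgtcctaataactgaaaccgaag
Atf3: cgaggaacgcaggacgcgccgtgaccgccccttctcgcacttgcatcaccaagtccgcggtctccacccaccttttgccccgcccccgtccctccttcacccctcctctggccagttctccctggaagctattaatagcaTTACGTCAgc
Egr2: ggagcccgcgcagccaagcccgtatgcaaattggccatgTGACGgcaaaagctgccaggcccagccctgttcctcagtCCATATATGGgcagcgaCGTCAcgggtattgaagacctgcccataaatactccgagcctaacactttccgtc

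Capitals mark TGACG, the CREB half-site, on either strand, the looser ATF-like octamer TNACNTCA on either strand, TATAAA on the gene's strand, and the CArG box bound by SRF. In Fos, TGACG lay 129 to 125 and 66 to 62 bases before the start, with TATAAA 33 to 28 bases before it. The Jun window held TNACNTCA 45 to 38 bases before the start, and Jund had the same octamer, on its other strand, at 95 to 88. TGACG lay 106 to 102 bases before the start of Junb. In Atf3 the octamer lay 10 to 3 bases before the start and contained TGACG, here on the other strand, at 7 to 3. The Egr2 window held a CArG box at 72 to 63 bases, flanked by TGACG at 111 to 107 and, on the other strand, at 55 to 51. Fosb, at chr7:19310046-19310195 on the minus strand, also held TGACG, 60 to 56 bases before its start, and Ier3, at chr17:35821563-35821712 on the plus strand, held none of these letters. Among 32851 RefSeq windows of the same length, 13.3% held TGACG, 9.87% TNACNTCA, 4.84% TATAAA and 0.916% a CArG box. Windows of 8 of the 10 members were read. Member windows on chromosome 18, where Egr1 lies, were left out, and Ier2 was not matched by symbol. The AP-1 site TGANTCA, present in 4.24% of all windows, was in none of the member windows read. A match is a description of letters and was not tied to any measurement of binding.

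A set of 7 columns stood apart from the rest before any gene was compared. These deep columns, 2A, 2B, 2C, 2D, 3A, 3B and 3C of Olfr2+, had totals of 76.0 to 95.6 M (M, 1000000 counts), of which 94.6 to 97.5% fell on protein-coding genes. The 3 remaining Olfr2+ columns (3D, 4A and 4B), called shallow here, had 29.9 to 37.6 M and 78.5 to 80.4%, and the 5 Olfr2- columns 30.5 to 53.2 M and 79.5 to 85.6%. The deep columns thus have no Olfr2- counterpart, and 60 M was used as the division. Olfr2 itself, the sorting marker, had 0 to 2 counts in the deep columns, 1 to 7 in the shallow Olfr2+ columns and 0 to 76 in those labelled Olfr2-, so its transcript went against the labels and the groups are the libraries labelled Olfr2+ and Olfr2-. Summed over 12 macrophage markers, all detected in every column, CPM (counts per 1000000 of the column total) was 7848 to 15775 in the deep columns, 2824 to 4475 in the shallow Olfr2+ columns and 1837 to 8708 in Olfr2- columns, while Fcgr1, which encodes the sorted CD64, was as low as 0.544 CPM. Lyz2 alone gave 4740 to 10335 CPM of the sums in the deep columns. Itgam had a lower median there than in either other set, at 24.7 to 132 CPM against 151 to 518 in all other columns. The Cd14 median there, 141 CPM, was below the 913 of the shallow Olfr2+ columns and above the 58.0 of the Olfr2- columns. Summed over 10 fibroblast markers, the level was 30187 to 41031, 2377 to 5157 and 2164 to 3970 CPM, with none at 0 in any column. Over 7 B cell markers the sums were 213 to 5391, 35235 to 54917 and 22934 to 41535 CPM. Cd79a and Pax5 were at 0 in some of the deep columns. Igkc alone gave 90.3 to 997, 24889 to 39601 and 19216.5 to 34328 CPM of these sums. Cd79a alone had a higher median in the deep columns, at 3.22 CPM against 0.886 and 1.79. Cd79b peaked in a deep column, at 229 CPM, although its median was lower there. The part of all these markers in the results that follow was not tested. In such bulk libraries, fewer cells of a type and less RNA per cell cannot be told apart.

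Whether the 10 genes differed between the libraries labelled Olfr2+ and Olfr2- was asked first with the columns of each numbered sample summed, 3 samples against 3. Jun, Atf3 and Ier2 were higher in Olfr2+, and none of the 10 was lower. This count of 3 of 10 stands against 1.12% of the 24362 genes tested, and against 3.11% of the 8746 genes with a mean of at least 10 CPM, a level that all members exceeded. For lower calls the share of all genes was 0.46%. Without adjustment, 7 of the 10 had a p under 0.05 (Fos, Fosb, Jun, Egr1, Egr2, Atf3 and Ier2), where 17.1% of all genes were higher and 15% lower at that threshold. The median log2 fold change of the members was 2.61, that of all genes 0.24 and that of genes with at least 10 CPM 1.80. That last set was chosen by the mean over 15 columns, 10 of them Olfr2+, which favours genes high in Olfr2+. Its other shares carry the same limit. With only genes of at least 10 CPM and scaling recomputed, the median was 0.17 for those genes and 0.88 for the members. Levels in these comparisons are CPM scaled by TMM, edgeR's correction for differing RNA composition, whose factors were 1.337 to 1.66 for the Olfr2- samples and 0.485 to 0.868 for the Olfr2+ samples.

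The 3 calls depended on single samples. With Olfr2- 3, Olfr2- 4, Olfr2+ 2 or Olfr2+ 3 left out, edgeR called 0 of the 10, and 0.25%, 0.334%, 0.0204% and 0.347% of all genes higher in turn. Leaving out Olfr2- 1 ended the calls of Jun, Atf3 and Ier2 and called Fos instead, with 0.38% of all genes higher. Leaving out Olfr2+ 4 called 5 (Fosb, Jun, Atf3, Egr1 and Ier2), with 3.25% of all genes higher. With any 1 sample left out, the log2 fold change was 2.47 to 3.68 for Jun, 2.69 to 3.48 for Atf3 and 3.19 to 4.18 for Ier2. Some other settings lowered it more. For Jun, Atf3 and Ier2 in turn it was 1.94, 1.83 and 2.545 on library totals alone. With only genes of at least 10 CPM and scaling recomputed it was 1.525, 1.42 and 2.24. With the depth set as a covariate it was 0.93, 2.035 and 2.13. Within the 8 columns below 60 M, the one setting in which both labels occur at like depth (2 Olfr2+ samples against 3 Olfr2-), edgeR called 0 of the 10, and 0% of the 29989 genes tested in either direction. There Atf3 alone had an unadjusted p under 0.05 (4.85% of all genes were higher and 5.58% lower at that threshold), and the members' median was 1.14, with all genes at -0.43 and genes of at least 10 CPM at 0.61. DESeq2 called 988 of 13960 genes higher there (7.08%) and 211 lower, with 0 of the 10 members among them.

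**Figure D1:**
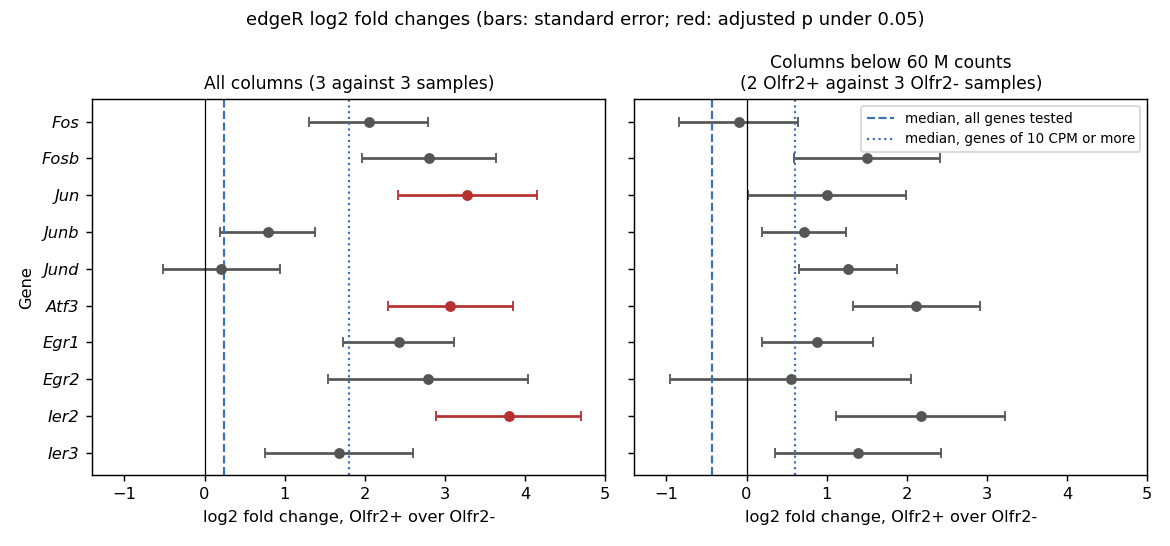
log2 fold change of each gene, Olfr2+ over Olfr2-, from edgeR on counts summed per sample, for all columns (left, 3 against 3 samples) and for the columns below 60 M counts (right, 2 against 3 samples). Points are estimates, bars 1 standard error, red an adjusted p under 0.05, and the dashed and dotted lines the medians of all genes tested and of genes with at least 10 CPM; Jun, Atf3 and Ier2 are red on the left and no gene is on the right, where Fos lies at -0.10.

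Fos, the inducible subunit that gives AP-1 its strongest DNA binding when paired with a Jun protein, had 3972, 843 and 571 TMM-scaled CPM in Olfr2- samples 1, 3 and 4. In Olfr2+ samples 2, 3 and 4 it had 13179, 7332 and 1749.5. The groups overlapped because Olfr2- 1 was above Olfr2+ 4. The log2 fold change was 2.05 (SE 0.74) with an edgeR adjusted p of 0.0901, which missed the threshold of 0.05. By column, Fos was at 5174 to 6827 CPM of the column total in the 7 deep columns (median 6253), a spread narrower than the gap to the shallow Olfr2+ columns at 1145, 1077 and 2072. The Olfr2- columns 3A, 3B, 4A and 4B lay between 817 and 1139 CPM, and 1A had 6563, inside the range of the deep Olfr2+ columns. Within the columns below 60 M the log2 fold change was -0.10 (SE 0.75), and without Olfr2- 1 it was 1.11. Counted per kb of annotated exon, Fos ranked 9 to 13 of 47224 features in the deep columns, 56 to 101 in the shallow Olfr2+ columns and 12 to 135 in those labelled Olfr2-.

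Fosb, a related subunit that persists longer after a stimulus in some of its spliced forms, had 114, 237 and 177 TMM-scaled CPM in Olfr2- and 1706, 1433 and 535 in Olfr2+. The lowest Olfr2+ sample was more than the highest Olfr2- sample, without overlap. Its log2 fold change of 2.80 (SE 0.83) had an edgeR adjusted p of 0.0667. Across columns it was 218 to 1694 CPM in the deep set (median 888), 396, 516 and 399 in the shallow Olfr2+ columns and 189, 440, 108, 237 and 307 in the Olfr2- columns. The 3 sets overlapped, and column 2C, at 218 CPM, was the low one among the deep columns. Below 60 M the log2 fold change was 1.51 (SE 0.91).

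Jun, the subunit that can also pair with itself and binds its own promoter, had 101, 194 and 160 TMM-scaled CPM in Olfr2- and 2736, 1311 and 362 in Olfr2+. All 3 Olfr2+ samples were above all 3 Olfr2- samples, but Olfr2+ 4 was far nearer to Olfr2- than to Olfr2+ 2. The means were 1469.6 ± 1195 and 151.5 ± 47.0 CPM (SD, n = 3 each), a ratio of 9.70. The log2 fold change was 3.28 (SE 0.87), with an edgeR adjusted p of 0.04997, only just under the threshold. In the columns, Jun was at 988 to 2179.5 CPM (median 1074) in the deep set. The shallow Olfr2+ columns had 204.5, 356.5 and 260.1 CPM, and the Olfr2- columns 167, 279.7, 223, 268 and 208. Every deep column was above every other column, whichever its label, while the Olfr2+ and Olfr2- columns below 60 M overlapped. Their log2 fold change was 1.00 (SE 0.98), with an edgeR adjusted p of 0.731, and without Olfr2+ 4 it was 0.52. Jun shares 232 bases with Junos on the opposite strand, and the strand setting is not given in the sources used here. Junos had 3 to 2204 counts, against 5084 to 187250.0 for Jun, and reads from it cannot be told apart.

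Junb, a Jun protein with weaker activating potential that can hold back Jun, was abundant in both groups. It had 2288, 2536 and 1827 TMM-scaled CPM in Olfr2- and 3861, 3412 and 4195 in Olfr2+. These did not overlap, yet the log2 fold change was only 0.79 (SE 0.60), with an edgeR adjusted p of 0.328, and it turned to -0.33 when library totals alone set the scale. On column totals the order was not that of Jun: the deep set had 584 to 3547 CPM (median 1908), the shallow Olfr2+ columns 2493, 4685 and 2326 and the Olfr2- columns 3780.2, 2458, 4935, 3841 and 1364. All 3 sets overlapped. Below 60 M the log2 fold change was 0.72 (SE 0.53), and 0.28 without Olfr2+ 4. An overlap of 173 bases with Prdx2 on the opposite strand leaves some of these counts uncertain.

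Jund, the Jun protein that resting cells already hold and that is known to slow growth, had 1427, 674 and 1032 TMM-scaled CPM in Olfr2- and 842, 675 and 2101 in Olfr2+. The groups overlapped throughout, and the log2 fold change of 0.21 (SE 0.73) had an edgeR adjusted p of 0.844. Its direction was not stable: it was -0.84 on library totals alone and -0.46 without Olfr2+ 4. By column total, Jund was at 155 to 628 CPM (median 253) in the deep set, below all of the shallow Olfr2+ columns (2390.1, 2030.1 and 1563) and all of the Olfr2- columns (2358, 942, 828.7, 1686 and 1401). With TMM scaling, Olfr2+ 2, whose columns were all deep, had 842 CPM, inside the Olfr2- range and below the 2101 of the all-shallow Olfr2+ 4. A gap to Olfr2- was thus seen on column totals and not with TMM scaling. The AP-1 shares given further on were also lower for Jund in the deep columns. Those shares are parts of a single sum, so higher Fos and Jun alone would lower them, and they cannot decide whether Jund fell. Among the 3 Jun genes only, the Jund share overlapped, spanning 5.04 to 38.9% in the deep set against 18.3 to 56.1% for Olfr2-. Below 60 M, Jund was higher in both Olfr2+ samples (3216 and 2683 TMM-scaled CPM) than in the Olfr2- samples (1540.4, 856 and 1276), with a log2 fold change of 1.27 (SE 0.61) and an edgeR adjusted p of 0.482. Its annotation overlaps Gm11175 on the opposite strand by 877 bases, a feature with 0 counts in every column.

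Atf3 was the one member whose Olfr2+ columns, deep or not, all lay above the Olfr2- columns in CPM of the column total. Its sample levels were 172, 323 and 247 TMM-scaled CPM in Olfr2- and 2927, 2343 and 929.8 in Olfr2+, giving means of 247 ± 75.6 and 2067 ± 1027 CPM (SD, n = 3 each) and a ratio of 8.36. Its log2 fold change was 3.06 (SE 0.78), with an edgeR adjusted p of 0.0467. Column by column it was 1082 to 2111 CPM (median 1384) in the deep set, 1056, 650.5 and 1003 in the shallow Olfr2+ columns and 284, 516, 289, 474 and 243 in the Olfr2- columns. The lowest Olfr2+ column was thus above the highest Olfr2- column, also among the shallower libraries. There the samples had 1421 and 1187 TMM-scaled CPM against 185, 410.0 and 305, a log2 fold change of 2.12 (SE 0.80), which after adjustment over all genes gave an edgeR p of 0.435.

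Egr1, a zinc finger factor that in macrophages is induced with differentiation and by lipopolysaccharide, had 854, 604 and 668 TMM-scaled CPM in Olfr2- and 5516, 4441 and 1442 in Olfr2+. The Olfr2- samples lay close together and below all Olfr2+ samples. The log2 fold change was 2.42 (SE 0.69), with an edgeR adjusted p of 0.0614. In the deep columns Egr1 was at 1063 to 4063 CPM (median 3384), in the shallow Olfr2+ columns at 928, 1191 and 1326 and in the Olfr2- columns at 1411, 989.8, 498, 733 and 1375. Column 2C again held the low end of the deep set and lay inside the Olfr2- range. Below 60 M the log2 fold change was 0.88 (SE 0.69), and 0.52 without Olfr2+ 4.

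Egr2, which takes part in macrophage activation and in restraining lymphocytes, was the least abundant of the 10. It had 4.03, 46.1 and 6.07 TMM-scaled CPM in Olfr2- and 186, 178 and 24.9 in Olfr2+. The groups overlapped through Olfr2- 3, and the log2 fold change of 2.79 (SE 1.25) had an edgeR adjusted p of 0.132. Without Olfr2- 3 it was 4.86. Among the deep columns it ran from 1.96 CPM in 2C to 254 in 3B (median 113), the widest relative range of any member there. The shallow Olfr2+ columns had 27.5, 28.1 and 13.4 CPM, and the Olfr2- columns 6.66, 86.7, 19.3, 12.4 and 5.05. Below 60 M the log2 fold change was 0.55 (SE 1.50), and 2.53 without Olfr2- 3.

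Ier2, a small nuclear protein encoded by a gene of a single exon, had the largest log2 fold change of the 10 over all samples, although Egr2 was above it without Olfr2- 3 (4.86 against 4.18) and Fos without Olfr2- 1 (3.200 against 3.193). It had 29.2, 119 and 130.2 TMM-scaled CPM in Olfr2- and 2068, 1183 and 609.7 in Olfr2+. The means were 92.8 ± 55.4 and 1287 ± 735 CPM (SD, n = 3 each), a ratio of 13.9, and the groups did not overlap. The log2 fold change was 3.79 (SE 0.90), with an edgeR adjusted p of 0.0413. The deep columns were close together, at 815 to 1191 CPM (median 920.1). The shallow Olfr2+ columns had 188, 464 and 611 CPM, of which the lowest lay among the Olfr2- columns at 48.3, 188, 110.3, 320.4 and 36.2. Below 60 M the log2 fold change was 2.17 (SE 1.05), with an edgeR adjusted p of 0.485, and without Olfr2+ 4 it was 1.08.

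Ier3, an early gene that protects cells from death and dampens NF-κB signalling, had 53.1, 170.0 and 139 TMM-scaled CPM in Olfr2- and 482, 494 and 183 in Olfr2+. No sample of one group lay within the other, though the log2 fold change of 1.68 (SE 0.93) had an edgeR adjusted p of 0.194. Its columns overlapped in every pairing of the sets: 126 to 552 CPM (median 226) in the deep set, 404.5, 199.5 and 108 in the shallow Olfr2+ columns and 87.8, 326, 62.0, 79.2 and 382 in the Olfr2- columns. Below 60 M the log2 fold change was 1.39 (SE 1.03), and 0.68 without Olfr2+ 3.

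**Figure D2:**
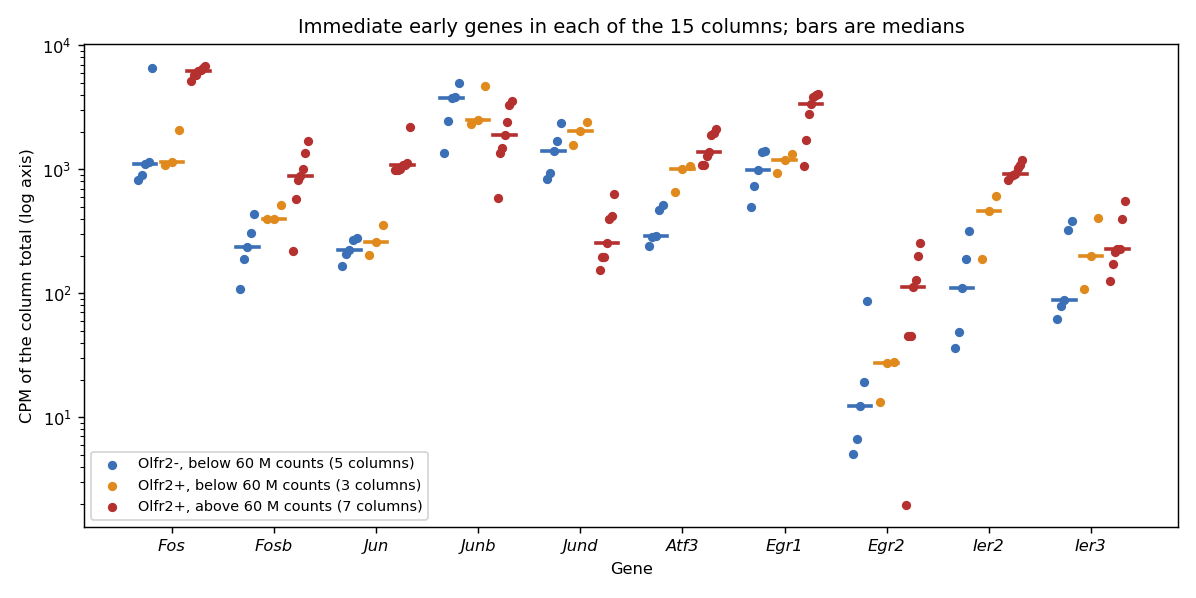
CPM of the column total (log axis) of the 10 genes in each of the 15 columns, with 5 Olfr2- columns in blue, 3 Olfr2+ columns below 60 M counts in orange and 7 Olfr2+ columns above 60 M in red; bars are medians. Jun, Ier2 and Atf3 are higher and Jund is lower in every red column than in every other column, and the lone blue point near the red Fos points is Olfr2- 1A at 6563 CPM.

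Counted over the 10, the TMM-scaled sample values of 7 members were higher in Olfr2+ without overlap (all but Fos, Jund and Egr2), where 13.5% of all genes tested and 30.5% of those with at least 10 CPM were. None was lower in that way, as 22.1% of all genes were. On column totals, Jun, Atf3 and Ier2 were higher and Jund was lower in each of the 7 deep columns than in each of the other 8. Among all genes tested, 1.41% were higher in that way and 9.46% lower, and among those with at least 10 CPM, 3.74% and 2.33%. Between the deep and the shallow Olfr2+ columns, which share a label, 4 members were higher without overlap (Fos, Jun, Atf3 and Ier2) and 1 was lower (Jund), with 2.85% and 18.9% of all genes, or 7.07% and 5.87% of those with at least 10 CPM. Their medians were 5.46 times higher for Fos, 4.13 times for Jun, 1.98 times for Ier2 and 1.38 times for Atf3, and 8.01 times lower for Jund. Between the shallow Olfr2+ columns and the Olfr2- columns, Atf3 alone was higher without overlap (1.02% of all genes, 2.42% of those with at least 10 CPM), with medians 3.47 times apart, and none was lower (5.18% and 4.66%). Jun and Jund thus parted the depth sets without overlap and not the labels below 60 M, whereas Atf3 parted both. On the TMM scale, which centres each sample differently, 8 members (all but Fos and Egr2) were higher in both Olfr2+ samples below 60 M than in all 3 Olfr2- samples, where 9.28% of all genes and 21.2% of those with at least 10 CPM were.

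The make-up of AP-1 within each library was then described for Fos, Fosb, Jun, Junb and Jund, as shares of their summed counts per kb of exon, which do not depend on the scaling between libraries. In the deep columns Fos made up 52.5 to 73.5%, Jun 6.81 to 16.8%, Junb 6.70 to 34.4% and Jund 2.22 to 9.94%. In the shallow Olfr2+ columns the shares were 11.7 to 29.6% for Fos, 2.05 to 2.86% for Jun, 34.0 to 52.1% for Junb and 31.2 to 45.8% for Jund. Olfr2- columns resembled the latter in range, with Fos at 12.0 to 47.1%, Jun at 0.882 to 3.85%, Junb at 27.7 to 67.1% and Jund at 15.5 to 44.3%. Fosb stayed at or below 5.96% in every column. By this measure Fos was the largest of the 5 in every deep column. It was also the largest in Olfr2- 1A, at 47.1% with Junb at 27.7% and Jund at 23.8%. Junb and Jund together outweighed Fos in all 8 columns below 60 M, 1A included, and in none of the deep columns.

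**Figure D3:**
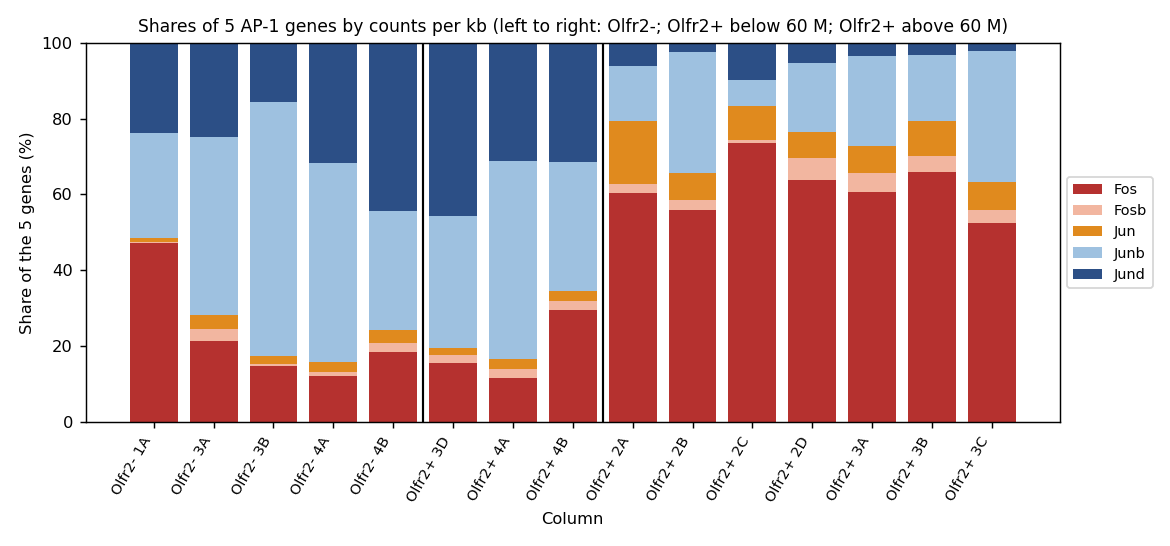
Share of each of 5 AP-1 genes in their summed counts per kb of exon (percent, stacked to 100), in 5 Olfr2- columns, 3 Olfr2+ columns below 60 M counts and 7 Olfr2+ columns above 60 M, divided by black lines. Fos takes 52.5 to 73.5% in the right-hand block and Jund no more than 9.94% there, while Jund takes at least 15.5% in each column of the other blocks.

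The ratio of Jun to Jund per kb of exon was 0.896 to 3.35 in the deep columns (median 2.72). It was 0.0448 to 0.0919 in the shallow Olfr2+ columns and 0.0370 to 0.155 in those labelled Olfr2-. The lowest deep column was thus above the highest of the other columns, and the sets of both labels below 60 M overlapped. For Fos to Jund the ratio was 7.39 to 23.6 in the deep columns, 0.340 to 0.940 in the shallow Olfr2+ columns and 0.378 to 1.97 in those labelled Olfr2-. The ratio of Fos to Junb did not part the sets fully, at 1.53 to 10.97 in the deep columns and 0.218 to 1.70 in the Olfr2- columns, where the high value again came from 1A.

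**Figure D4:**
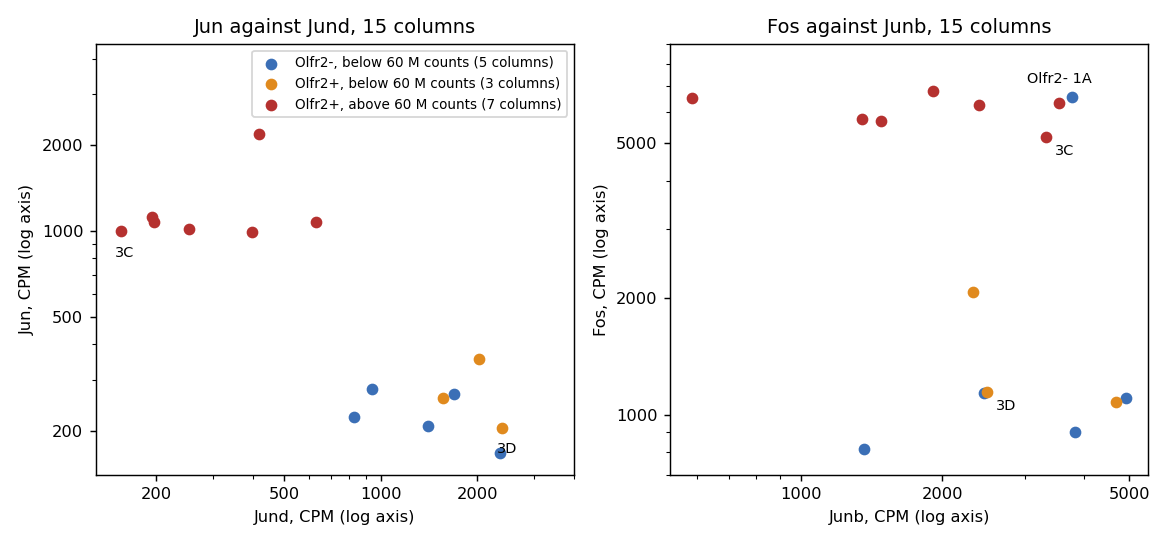
Jun against Jund (left) and Fos against Junb (right), each in CPM of the column total on log axes, with 1 point for each of 15 columns coloured as in the key. On the left the 7 deep Olfr2+ columns (red) sit at high Jun and low Jund and all 8 others at the reverse; 3C and 3D carry 1 library name and fall on opposite sides, and on the right the Olfr2- column 1A lies with the red points.

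Olfr2+ sample 3 is the only numbered sample with columns in both depth sets, and its columns 3C and 3D carry the same library name. Fos had 5174 CPM in 3C and 1145 in 3D, Jun 994 and 204.5, and Ier2 897 and 188. Jund moved the other way, with 155 CPM in 3C and 2390.1 in 3D. Atf3 had 1977 and 1056 CPM, Egr1 3384 and 928, Fosb 888 and 396, and Egr2 128 and 27.5. Ier3 was lower in 3C, at 226 against 404.5 CPM, and Junb had 3318 and 2493. How many of all genes were higher in 3C was not computed, so these directions are not read as particular to the 10 genes. Protein-coding genes held 97.1% of the counts in 3C and 78.5% in 3D. Columns 3A and 3B resembled 3C, with Fos at 6253 and 5717 CPM, Jun at 1010.5 and 1074 and Jund at 253 and 197. These are single columns with no test.

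Together the 10 genes held 1.27 to 1.94% of all counts in the deep columns, 0.923 to 1.12% in the shallow Olfr2+ columns and 0.614 to 1.49% in those labelled Olfr2-, whose highest was 1A. Between members, the 45 Pearson correlations of log2(CPM + 1) had a median of 0.47 over the 15 columns, which share samples and depth sets. Over the 8 columns below 60 M the median was 0.20 and over the 7 deep columns -0.06. The median was thus lower within either depth set than over all columns. Over all columns, Jund had a median of -0.68 to the other 9 and Junb -0.26, but these signs did not all hold within the depth sets. Below 60 M the medians were 0.14 for Jund and 0.02 for Junb, and in the deep columns -0.48 and 0.43. By the same measure, the genes most like the mean of the 10 over the 15 columns were Sepp1, which carries selenium, Tmem59, Gpc3, a surface proteoglycan, and the lysosomal enzymes Ctsz and Smpd1, with r from 0.90 to 0.93 among 8337 genes ranked. Sepp1 was at 647 to 2697 CPM in the deep columns, 181 to 652 in the shallow Olfr2+ columns and 75.3 to 605 in those labelled Olfr2-. Over the 8 columns below 60 M the ranking gave other genes, Csf2rb, a receptor chain for GM-CSF, Rassf4, Ttpal, the ribosomal protein gene Rpl29 and Baz2b, with r from 0.95 to 0.97. Both rankings pick the highest of 8337 genes over few columns. The mean followed the members unevenly: their own r ran from -0.77 for Jund to 0.93 for Fosb over the 15 columns. Over the 8 columns it ran from 0.001 for Fos to 0.86 for Atf3.

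The wider pathway was read from 6 gene lists, given here with the same 3 against 3 fit and with the columns below 60 M. In the latter, edgeR called none of their genes. In the 3 against 3 fit, edgeR called 1.12% of all genes higher and 0.46% lower. At an unadjusted p under 0.05 these shares were 17.1% and 15%. Of 15 other AP-1 and ATF family bZIP genes, 0 were called by edgeR, 2 were higher and 1 lower at an unadjusted p under 0.05, and the median log2 fold change was 1.57 (1.40 below 60 M). The most abundant were Atf4, a stress factor of amino acid supply, at 729 ± 382 TMM-scaled CPM in Olfr2+ and 351 ± 66.8 in Olfr2- (SD, n = 3 each), and Fosl2, a Fos relative, at 612 ± 451 and 259 ± 202. Their log2 fold changes were 1.05 (SE 0.80) and 1.24 (SE 0.90), and those of Atf6 and Mafg were 0.80 (SE 0.99) and -0.04 (SE 0.84). Of 16 other transcription factors of the primary response, 1 was called higher and 0 lower, with a median of 0.45 (0.51 below 60 M). At an unadjusted p under 0.05, 4 were higher and 0 lower. The gene called was Cebpd, a C/EBP factor of inflammation, at 1101 ± 684 against 37.3 ± 26.5 TMM-scaled CPM, a log2 fold change of 4.88 (SE 0.98) with an edgeR adjusted p of 0.0278. Its relative Cebpb had -0.65 (SE 0.85), Klf2 -0.46 (SE 0.73), Klf4 1.82 (SE 0.76) and Klf6 0.68 (SE 0.72), so the most abundant factors of this list had values of either sign and did not pass the test.

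Among 17 effectors of the primary response, 2 were called higher and 0 lower, with a median of 1.74 (0.83 below 60 M). At an unadjusted p under 0.05, 6 were higher and 0 lower. The 2 called were Gadd45g, a growth arrest gene, with a log2 fold change of 5.25 (SE 1.11) and an edgeR adjusted p of 0.0284, and Cyr61, a secreted matrix protein made by fibroblasts among other cells, with 4.54 (SE 1.16) and an edgeR adjusted p of 0.0467. The fibroblast marker sums given earlier were highest in the deep Olfr2+ columns, and their part in these values was not tested. The most abundant effectors were Btg1, at a log2 fold change of -0.75 (SE 0.68), Mcl1 at 1.21 (SE 0.72), Btg2 at 1.81 (SE 0.79) and Ier5 at 0.63 (SE 0.72). None of these passed the test.

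Feedback genes, which switch the response off, gave 0 calls by edgeR among 16, 2 at an unadjusted p under 0.05 and a median of 1.00 (0.77 below 60 M). Dusp1, a phosphatase that inactivates MAP kinases, had 5867 ± 2316 TMM-scaled CPM in Olfr2+ and 1632 ± 733 in Olfr2- (SD, n = 3 each), a log2 fold change of 1.85 (SE 0.62) with an edgeR adjusted p of 0.0814. Zfp36, which speeds the decay of early gene mRNAs, had 0.71 (SE 0.60), and the NF-κB regulators Nfkbia and Nfkbiz had 1.03 (SE 0.66) and 0.41 (SE 0.74). The 24 upstream kinases and SRF, ETS and CREB factors gave 0 calls by edgeR, 5 at an unadjusted p under 0.05 and a median of 1.31 (1.05 below 60 M), with Mapk3 at 0.10 (SE 0.86), Mapkapk2 at 0.31 (SE 0.85), Crebbp at 0.47 (SE 0.94) and Map2k3 at 0.78 (SE 0.95). Of 12 heat shock genes, 2 were called higher and 0 lower, with a median of 1.54 (0.88 below 60 M). At an unadjusted p under 0.05, 4 were higher and 0 lower. Hspb1, a small heat shock protein, had a log2 fold change of 6.05 (SE 1.50) and an edgeR adjusted p of 0.0443, and the co-chaperone Dnajb1 had 4.26 (SE 1.05) and an edgeR adjusted p of 0.0433. The most abundant heat shock genes, Hsp90ab1, Hspa8 and Hsp90aa1, had 1.14 (SE 0.62), 1.30 (SE 0.70) and -0.21 (SE 0.69). Over all columns, each of the 6 list medians lay above that of all genes tested and below the 1.80 of genes with at least 10 CPM. Below 60 M each again lay above that of all genes, and 5 of the 6 lay above the 0.61 of genes with at least 10 CPM, the exception being the other transcription factors.

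An mRNA feature shared by many early genes is the pentamer ATTTA in the 3′ UTR, the core of the elements that decay factors such as Zfp36 bind. In the longest annotated 3′ UTRs on GRCm38, 9 of the 10 members held at least 1 ATTTA, and Ier2 held none. The count was 5 in Ier3, 4 in Fos and in Jun, 3 in Atf3 and in Egr2, 2 in Junb and in Egr1 and 1 in Fosb and in Jund. Of 10288 genes with a 3′ UTR of 485 to 2302 bases, the range of the members, 73.2% held at least 1, so its presence in 9 of 10 is near the background. Per kb, the number ran from 0 in Ier2 and 0.434 in Fosb to 4.12 in Junb, 4.91 in Fos and 8.16 in Ier3, where the median of those genes was 1.36. The longer TATTTAT was in Fos, Fosb, Jun, Jund, Atf3 and Ier3 and not in Junb, Egr1, Egr2 or Ier2. Of the same 10288 genes, 26.1% held it. No link between either sequence and the levels was tested.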

How the data were processed

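The authors deposited raw read counts per gene (whole numbers) in 15 columns. Per the submitters' processing notes, STAR 2.7.1, DRAGEN, DESeq2 1.34 and the build GRCm39 were used, with no step given for each. No strand setting or annotation release is given in the sources used here. Exon lengths and overlaps came from GENCODE M21 (GRCm38), which held 98.9% of the identifiers. Where a symbol named several features, the one with the most counts was used. Counts are of amplified reads without molecular tags and do not equal molecules.

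Columns of the same numbered sample were added up, and all genes were tested together with the two-sided quasi-likelihood F test of edgeR 4.0.16 (R 4.3.3), after TMM scaling and edgeR's group-wise expression filter. Calls are at 0.05 after Benjamini-Hochberg adjustment, and the F statistic gave each standard error (SE). DESeq2 1.42.0, limma-voom (limma 3.58.1), other scalings, filters, units of replication, a block, a depth covariate and leaving out single samples were the alternatives. The members, the lists and the division at 60 M were chosen with earlier results of these data known.

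The genes named are the members, list genes that passed the test, the 4 most abundant of each list, and the 5 genes most like the members' mean over 15 and over 8 columns, with a mean of at least 10 CPM. Marker sums not given beside the results were, in the deeper, other Olfr2+ and Olfr2- columns in turn, 74.7 to 207, 2.98 to 4.69 and 3.61 to 19.8 CPM for 7 smooth muscle genes, 1.61 to 765, 14.1 to 70.7 and 35.5 to 212 for 7 endothelial genes, 0.780 to 18.9, 4.95 to 143 and 23.8 to 281 for 8 T and NK cell genes, and 94.4 to 396, 661 to 696 and 180.0 to 739 for 7 neutrophil genes. Sequences are from RefSeq. Whether the same sample number in both groups pairs the samples is not known. Deviations from the group means correlated at 0.01 for number 3 and -0.07 for number 4. These values cannot decide it, because the Olfr2+ samples also differ in depth set.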

Additional observations from a re-analysis of the deposited data

Results flagged for a closer look

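In 3 of 20 groups of columns checked (each member within each label), the highest column stood further from the next than Dixon's 95% critical value allows, while chance gives about 1 in 20 groups. Fos in Olfr2- column 1A had 6562.7 CPM, with the next Olfr2- column at 1139 CPM. Jun in Olfr2+ column 2A had 2179.5 CPM, with the next Olfr2+ column at 1119 CPM. Egr2 in Olfr2- column 3A had 86.68 CPM, with the next Olfr2- column at 19.3 CPM. The columns of a group share samples and are not independent.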

How the results depend on the processing

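The count of members called higher, with the share of all genes called higher in parentheses, was 3 (1.12%) with edgeR, 5 (12.5%) with DESeq2, 0 (0%) with limma-voom, 0 (0.353%) on library totals alone, 0 (0%) with only genes of at least 10 CPM and scaling recomputed, 4 (6.19%) with those genes and the scaling kept, 5 (3.18%) with columns as samples, 6 (3.4%) with library names as samples and 0 (0%) with the depth set as a covariate. Without a filter it was 3 (1.5%). With the sample number as a replicate block it was 0 (0.00821%), and whether the numbers pair the samples is not known. These shares differ, so the counts are not comparable as they stand. Leaving out each sample gave 0 to 5. None was called lower under any of these, and below 60 M none was called in either direction under any alternative run, by block included. Library totals alone moved the median of all genes from 0.24 to -0.88.

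These log2 fold changes changed sign. For Fos it became -0.11 with rescaled genes of at least 10 CPM and -0.25 with the depth covariate, and for Junb -0.33 on library totals and -0.74 with rescaled genes of at least 10 CPM. For Jund it became -0.019 with limma-voom, -0.84 on library totals, -1.25 with rescaled genes of at least 10 CPM, -0.009 with columns as samples, -0.16 with library names as samples and -0.46 without Olfr2+ 4 (0.595 at most with 1 sample left out). Below 60 M, Fos became 0.048 with DESeq2, 0.27 with columns as samples, 1.09 with the replicate block, 1.11 without Olfr2- 1 and 0.20 without Olfr2+ 3 (-0.610 at the lowest with 1 sample left out). Junb became -0.11 on library totals and -0.32 with rescaled genes of at least 10 CPM, Egr2 -0.07 and -0.006 under the same settings, and Egr1 -0.23 with rescaled genes of at least 10 CPM. The cause was not tested. With 3 samples against 3 and depth tied to the Olfr2+ label, depth and label cannot be told apart in the deeper columns.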
